A study of Rattus norvegicus with 12 samples.

Results

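CircRNAs of 4 genes that encode exchange factors of small GTPases, Dennd1b, Ralgps2, Dnmbp and Psd3, were followed in liver of diabetic rats after sleeve gastrectomy. The genes were chosen by their role and from earlier results of the same libraries: Dennd1b and Dnmbp by how their circRNAs differed between sleeve gastrectomy and sham, Ralgps2 and Psd3 by their abundance. Their entries in the deposited table were found by gene symbol, and Ensembl identifier entries were added where they shared a transcript or a junction with them. This gave 60 of 21876 entries, which described 52 of 21068 junctions in 4 of 6021 host genes. Of the 60 entries, 55 were linked directly and 5 through another identifier entry, among them the leading circRNA of Ralgps2; those 5 held 1705 of the 4361 reads.

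The animals were wild type wistar rats fed a high-fat diet, with 60% of the calories as fat, and injected once, after a fast of 16 h, with 35 mg/kg of streptozotocin, which kills insulin-producing cells. Those with fasting glucose above 16.7 mmol/L then had either sleeve gastrectomy (SG), which removes most of the stomach, or a sham operation (SHAM). There were 2 libraries from rats whose diabetes relapsed after SG, 5 from SG rats sampled 3 months after surgery and 5 from SHAM rats. All 3 groups thus shared the diet and the toxin. The time of sampling of relapse and SHAM rats is not given in the sources used here. It is not stated that each library is from a separate animal, so p-values measure only the spread between these samples. In whole liver, fewer cells of a type and less RNA per cell cannot be told apart.

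Small GTPases, among them the Rab, Ras and Arf families, are switches of membrane traffic, cell shape and growth signals, and they are on when GTP is bound. Guanine nucleotide exchange factors turn them on by releasing GDP, and GTPase-activating proteins turn them off. In human and mouse cells DENND1B acts on Rab35 in endosomal traffic. RALGPS2 acts on Ral proteins, which tether secretory vesicles. DNMBP, also called Tuba, acts on Cdc42 and binds dynamin. PSD3 acts on Arf6 at the plasma membrane, and the human gene has been linked to fatty liver. A circRNA is a closed loop formed when the end of one exon is joined back to the start of the same or an earlier exon. Reads across that back-splice junction count the loop and measure neither the linear mRNA nor the protein.

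The libraries held 18176 to 37229 back-splice reads. Levels are given as reads-per-million (RPM) of all back-splice reads of a library. A count of 0 over a whole group allows up to 53.9 RPM in relapse, 25.05 RPM in SG and 27.5 RPM in SHAM, by counting error alone. Of 8 hepatocyte markers, 7 had a circRNA, and their summed level was 4601 to 6849 RPM in relapse, 3145 to 9177 RPM in SG and 6769 to 11444 RPM in SHAM. Hepatocyte circRNAs thus led in every group, and their ranges overlapped. Cholangiocyte markers (0 of 5) and markers of pancreas and gut (0 of 6) were at 0 in every library. Markers of endothelium (4 of 6) summed to 188 to 541 RPM in relapse, 0 to 342 RPM in SG and 0 to 279 RPM in SHAM. Markers of the other liver cells were low and overlapped between the groups. Stellate cell markers (3 of 7, with Lrat, Col1a1, Col1a2 and Des at 0) reached at most 217 RPM in relapse, 344 RPM in SG and 232 RPM in SHAM. Kupffer cell and macrophage markers (3 of 7, with Cd68, Clec4f, Cd163 and Marco at 0) spanned 108 to 242 RPM in relapse, 34.2 to 835 RPM in SG and 52.1 to 511 RPM in SHAM. Of 6 lymphocyte and granulocyte markers Ptprc alone had a read, 1 in SG. The part of these cell types in the results below was not tested.

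The 4 genes differed widely in abundance. Ranked by mean RPM over the 12 libraries among the 6021 hosts, Ralgps2 was number 8, Psd3 number 11, Dnmbp number 46 and Dennd1b number 141. Ralgps2 and Psd3 were chosen by their abundance in these libraries, so nothing is read from their ranks. Ralgps2 had 1789 reads over the 12 libraries, Psd3 1578, Dnmbp 675 and Dennd1b 319. Over all 12 libraries, group differences included, the coefficient of variation of the RPM was 20.96% for Psd3, 30.4% for Dnmbp, 31.6% for Ralgps2 and 61.3% for Dennd1b. Dennd1b and Dnmbp were chosen by a group difference, and Dennd1b had the fewest reads, so nothing is read from this order. Together the 4 genes held 15351 ± 1576 RPM in relapse (SD, n = 2), 14480.5 ± 2103 RPM in SG (SD, n = 5) and 16189 ± 2147 RPM in SHAM (SD, n = 5).

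**Figure D1:**
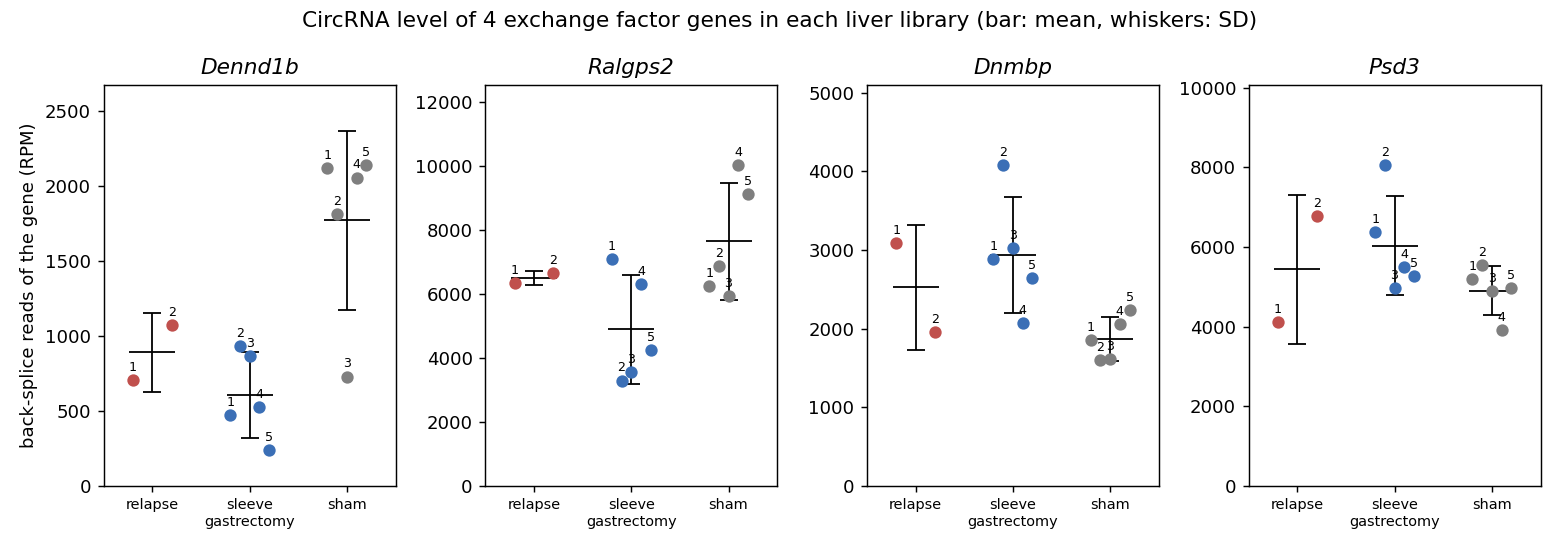
Back-splice reads summed per host gene in RPM (y axis) for each library of relapse, SG and SHAM (x axis); points are libraries with their replicate number, bars are group means and whiskers the SD. The Dennd1b values of SHAM 3 (729 RPM) lie among those of SG, and the other SHAM libraries lie above all SG libraries.

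In each of the 4 genes more reads came from a single back-splice than from all others together. In Dnmbp, circRNA2198 held 98.7% of the reads, in Ralgps2 circRNA2745 held 92.5%, and in Psd3 circRNA598 held 72.9%. In Dennd1b the leading circRNA62 held 61.8%. Reads of 24 of the 52 junctions came from 1 library alone, and 6 junctions had reads in all 12. The count filter was passed by 10 junctions, which together held 94.7% of the reads, so the other 42 are described by their reads alone.

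**Figure D2:**
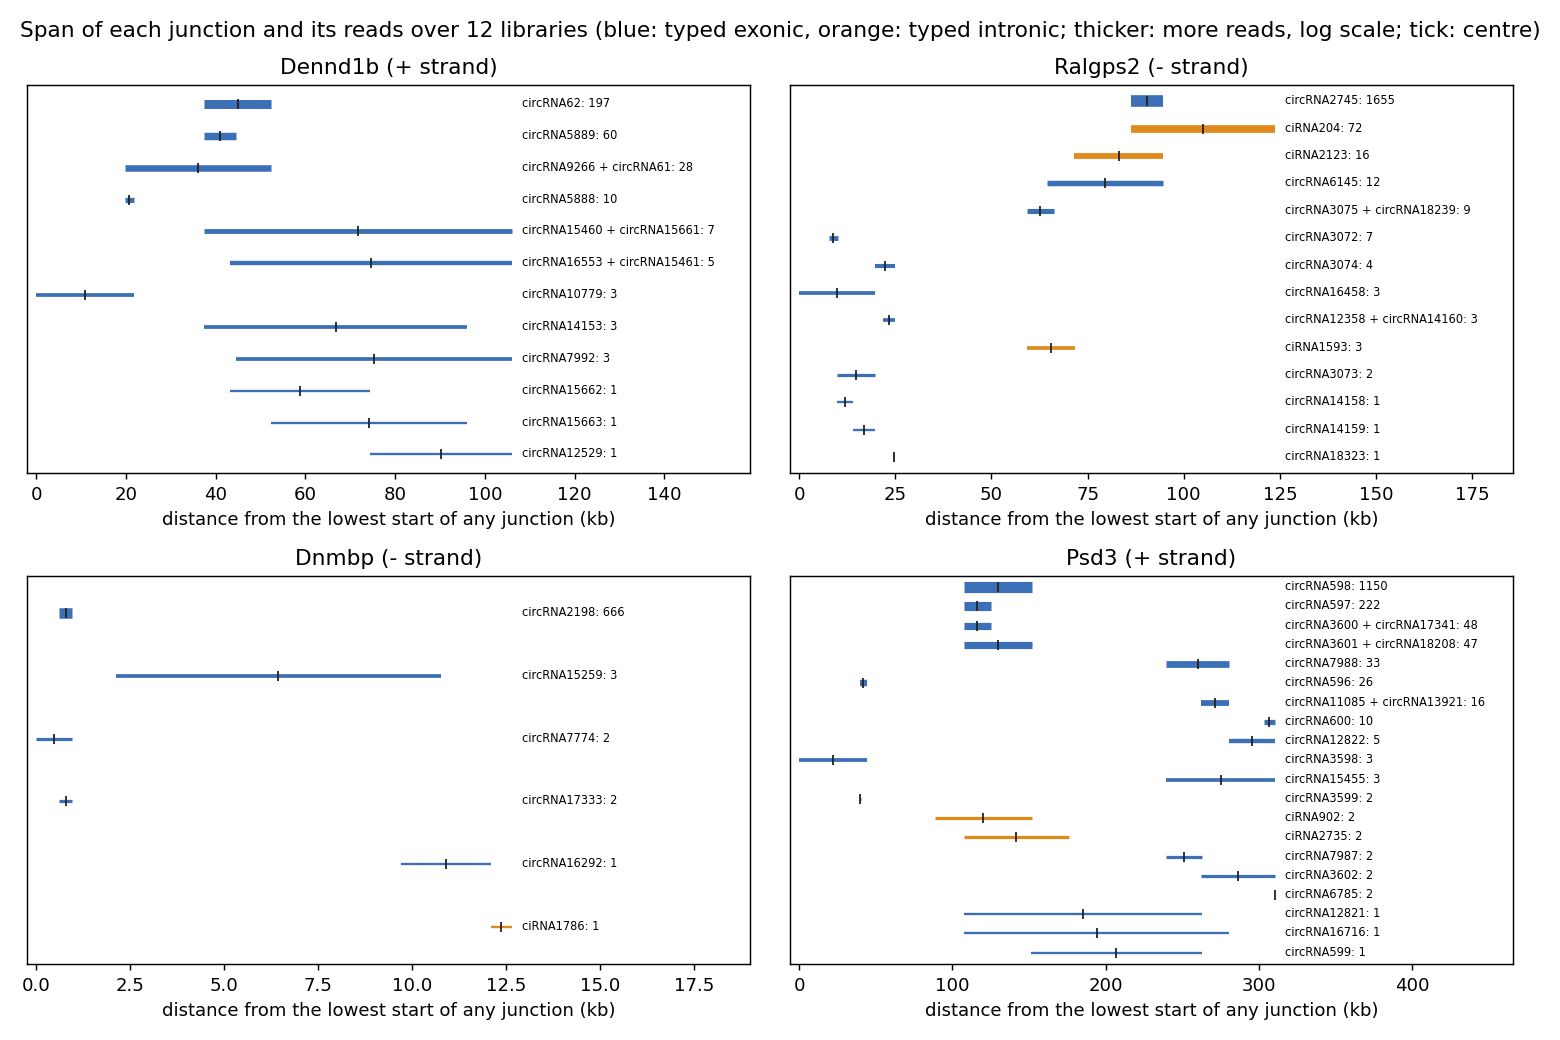
Each line is the span of 1 junction along the chromosome, in kb from the lowest start of the gene's junctions (x axis), with the entry names and the reads over 12 libraries at the right; blue lines are typed exonic and orange lines intronic, thickness grows with the logarithm of the reads and ticks mark the centre. In Dnmbp nearly all reads (666 of 675) fall in 1 short exon, while Psd3 has several circles that start at nearly the same place.

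Dennd1b, the Rab35 exchange factor, had the lowest level of the 4 genes. Its summed circRNAs had 704 and 1074 RPM in relapse. In SG they had 473, 934, 863, 524 and 240 RPM, against 2118, 1816, 729, 2056 and 2139 RPM in SHAM. All 5 SG libraries lay below the SHAM mean, but SHAM 3 fell among the SG libraries, so the groups overlapped. The means were 889 ± 262 RPM in relapse (SD, n = 2), 607 ± 288 RPM in SG (SD, n = 5) and 1771 ± 597 RPM in SHAM (SD, n = 5), from 53, 68 and 198 reads. Both relapse libraries stood above the SG mean and below the SHAM mean.

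The log2 fold change of Dennd1b in SG against SHAM was −1.60 (SE 0.34). In edgeR 0.15% of all hosts (2 of 1337) passed a false discovery rate of 0.05 there, and Dennd1b was one of them; that comparison was used to choose the gene, so nothing is read from the call. The value lay between −1.80 and −1.36 when each library was left out in turn, and the call was lost without SG 4 or 5 or without SHAM 1, 2, 4 or 5. With symbol entries alone the log2 fold change was −1.17 and the call was lost. Relapse against SG gave 0.59 (SE 0.44, edgeR adjusted p = 1) and relapse against SHAM gave −1.01 (SE 0.45, edgeR adjusted p = 0.789), and neither passed. They ranged from 0.15 (without relapse 2) to 0.93 (without relapse 1) and from −1.44 (without relapse 2) to −0.65 (without relapse 1) with single libraries left out; without SG 5 relapse against SG gave 0.38. These comparisons reuse the libraries of the one that chose the gene.

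Most Dennd1b circles began at one exon start. The position 56114439 on the plus strand of chromosome 13 (build Rnor_6.0) was the start of 4 junctions and 83.7% of the reads. CircRNA62 (56114439 to 56129496, a span of 15058 bases, 4 exons) was read in all 12 libraries. It had 595 and 618 RPM in relapse, 331, 688, 755, 426 and 137 RPM in SG and 695, 990.3, 573, 1655 and 1302 RPM in SHAM. The groups overlapped, and its log2 fold change was −1.17 (SE 0.40) in SG against SHAM.

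CircRNA5889 shared that start but ended earlier, at 56121638 (a span of 7200 bases, 4 exons). Its reads were 0 and 11 in relapse. In SG they were 0, 0, 2, 0 and 0, against 19, 6, 0, 8 and 14 in SHAM, which made 60 reads in 6 libraries. Thus 4 of 5 SHAM libraries held reads of it, as did 1 of 5 SG libraries, and SHAM 3 was at 0. CircRNA5889 is an identifier entry. Such entries seldom list a single read: 2.26% of their values above 0 were 1, against 38.1% in symbol entries, and in the 23 identifier entries of the 4 genes the lowest value above 0 was 2. Whether its counts of 0 hide single reads, and their part in the difference, was not tested. Identifier entries held 32.1% of the Dennd1b reads in relapse, 17.6% in SG and 39.4% in SHAM.

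The third tested junction of Dennd1b, circRNA9266 with circRNA61 (56096835 to 56129496), ended where circRNA62 ends and spanned 32662 bases. Its 28 reads came from relapse 1, SG 2 and 5 and SHAM 1 and 2, with 13 of them in SHAM 1. The remaining 9 junctions had 1 to 10 reads each.

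Ralgps2, the Ral exchange factor, had the highest level of the 4 genes. Its summed circRNAs had 6334 and 6661 RPM in relapse. In SG they had 7089, 3292, 3559.7, 6324 and 4246 RPM, against 6256, 6877, 5934, 10029 and 9112 RPM in SHAM. SG 2, 3 and 5 lay below every SHAM library, while SG 1 and 4 lay among them. The means were 6498 ± 232 RPM in relapse (SD, n = 2), 4902 ± 1705 RPM in SG (SD, n = 5) and 7642 ± 1822 RPM in SHAM (SD, n = 5). All 5 SG libraries lay below the SHAM mean, and both relapse libraries lay between the means of SG and SHAM.

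These differences of Ralgps2 did not pass. The log2 fold change was −0.64 in SG against SHAM (SE 0.22, edgeR adjusted p = 0.506), 0.36 in relapse against SG (SE 0.28, edgeR adjusted p = 1) and −0.28 in relapse against SHAM (SE 0.29, edgeR adjusted p = 0.979). With single libraries left out the relapse values ranged from 0.26 to 0.58 against SG (0.58 without SG 1) and from −0.37 to −0.098 against SHAM (−0.11 without relapse 1, −0.098 without SHAM 4 and −0.18 without SHAM 5). Between relapse and SG 0.0748% of all hosts passed, and between relapse and SHAM 0.15%; none of the 4 genes was among them.

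CircRNA2745 of Ralgps2 lies on the minus strand of chromosome 13 at 74512347 to 74520636, a span of 8290 bases with 3 exons, and is named by its Ensembl identifier alone. Identifier entries held 98.7% of the Ralgps2 reads. Read by direct links only, Ralgps2 would keep 122 of its 1789 reads, since circRNA2745 (1655 reads) and circRNA6145 (12 reads) were linked through another identifier entry. CircRNA2745 had 5792 and 5909 RPM in relapse, 6758, 3096, 3290.0, 5701 and 4109 RPM in SG and 5594, 6272, 5569, 9377 and 8834 RPM in SHAM. Its log2 fold change in SG against SHAM was −0.60 (SE 0.23, edgeR adjusted p = 0.996). The end 74520636 was shared by 3 junctions with 94.1% of the reads.

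The second junction of Ralgps2, ciRNA204 (74512346 to 74549794), is typed intronic, spans 37449 bases and is listed with a start 1 base before that of circRNA2745; whether the table counts the start of such long intronic entries in the same way could not be settled. It was read in all 12 libraries at a low level: 541 and 322 RPM in relapse, 284, 197, 216, 197 and 137 RPM in SG and 265, 385, 208, 150.4 and 186 RPM in SHAM. The relapse values came from 10 and 12 reads. The log2 fold change of relapse against SG was 1.02 (SE 0.82, edgeR adjusted p = 0.9995) and did not pass. CiRNA2123, which shares the end of circRNA2745, had 16 reads, all in SHAM 1, 3 and 4, and did not pass the count filter.

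Dnmbp, the Cdc42 exchange factor, was the gene with the simplest pattern. Its summed circRNAs had 3086 and 1961 RPM in relapse. In SG they had 2883, 4078, 3020.3, 2064 and 2637 RPM, against 1854, 1596, 1614, 2056 and 2232 RPM in SHAM. All 5 SG libraries lay above the SHAM mean, and SG 4 alone lay within the SHAM range. The means were 2523 ± 795 RPM in relapse (SD, n = 2), 2936 ± 736 RPM in SG (SD, n = 5) and 1870.0 ± 277 RPM in SHAM (SD, n = 5).

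The log2 fold change of Dnmbp was 0.62 (SE 0.25) in SG against SHAM, the comparison that chose the gene, and the gene did not pass there. It was −0.27 in relapse against SG (SE 0.33, edgeR adjusted p = 1) and 0.36 in relapse against SHAM (SE 0.32, edgeR adjusted p = 0.979). With single libraries left out these ranged from −0.50 (without relapse 1) to −0.015 (without relapse 2), with −0.10 without SG 2, and from 0.15 (without relapse 1) to 0.61 (without relapse 2). The 2 relapse libraries lay on either side of the SG mean and both above the SHAM mean. CircRNA2198, on the minus strand of chromosome 1 at 263633066 to 263633397, is 1 exon of 332 bases joined to itself. It held 666 of the 675 reads, and the other 5 junctions had at most 3 reads each, led by circRNA15259 with 3 reads in SHAM 1 and circRNA7774 with 2. Its log2 fold change in SG against SHAM was 0.69 (SE 0.25).

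Psd3, the Arf6 exchange factor, ranked next to Ralgps2 in abundance. Its summed circRNAs had 4114 and 6769 RPM in relapse. In SG they had 6379.7, 8058, 4962, 5505 and 5273 RPM, against 5196, 5557, 4893, 3911 and 4975 RPM in SHAM. The groups overlapped, all 5 SG libraries lay above the SHAM mean, and the 2 relapse libraries lay on either side of all group means. The means were 5442 ± 1877 RPM in relapse (SD, n = 2), 6035 ± 1248 RPM in SG (SD, n = 5) and 4906 ± 613 RPM in SHAM (SD, n = 5). The log2 fold change was 0.28 in SG against SHAM (SE 0.21, edgeR adjusted p = 0.997), −0.16 in relapse against SG (SE 0.28, edgeR adjusted p = 1) and 0.12 in relapse against SHAM (SE 0.28, edgeR adjusted p = 0.990). The last 2 changed sign with 1 relapse library left out: they were −0.65 and −0.36 without relapse 2, and 0.24 and 0.54 without relapse 1.

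Psd3 formed a short and a long circle from the same start. On the plus strand of chromosome 16, circRNA598 ran from 23555920 to 23600154 (44235 bases, 6 exons) and circRNA597 from 23555920 to 23573530 (17611 bases, 4 exons). CircRNA598 had 3139.7 and 4942 RPM in relapse, 4159, 5651, 3991, 4161 and 3527 RPM in SG and 3542, 3961, 4372, 2908 and 3719 RPM in SHAM. CircRNA597 had 704 and 1048 RPM in relapse, 803, 1572, 593, 819 and 822 RPM in SG and 662, 935, 260.3, 301 and 604 RPM in SHAM. Both circles were read in every library, with overlapping groups. In SG against SHAM the log2 fold change was 0.23 for circRNA598 (SE 0.22) and 0.73 for circRNA597 (SE 0.38), both with an edgeR adjusted p of 0.996.

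A second start lay 3 bases downstream, at 23555923, with the same ends. The junction written as circRNA3601 and circRNA18208 (the long end) had 47 reads and the one written as circRNA3600 and circRNA17341 (the short end) had 48, so the first start had 1372 reads and the second 95. Of the long one, 0 and 12 reads were in relapse, 7, 10, 0, 0 and 7 in SG and 3, 2, 1, 5 and 0 in SHAM, so it was missing from libraries of each group. The second start took 4.49 ± 6.35% of these reads in relapse (SD, n = 2), 5.93 ± 4.70% in SG (SD, n = 5) and 6.73 ± 3.24% in SHAM (SD, n = 5). Its share was 17.8% among reads of the short end and 3.93% among reads of the long end. Over both starts the short circle took 19.2 ± 1.195% of the reads in relapse (SD, n = 2), 18.6 ± 3.59% in SG (SD, n = 5) and 16.2 ± 5.07% in SHAM (SD, n = 5). These shares were computed after the junctions had been seen, and no test was made on them.

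Farther downstream in Psd3, circRNA7988 (23687865 to 23729219, 3 exons) had 0 and 0 reads in relapse. In SG it had 6, 0, 5, 6 and 2 reads, against 7, 3, 0, 0 and 4 reads in SHAM. With 3 reads set as the limit over the relapse group, its pooled RPM was at least 2.95-fold lower in relapse than in SG. Against SHAM it was at least 2.38-fold lower. That limit covers counting error only and not the spread between libraries, and some SG and SHAM libraries were also at 0. Neither difference passed (edgeR adjusted p = 0.9995 and 0.842), and circRNA7988 is an identifier entry, in which single reads are seldom listed.

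**Figure D3:**
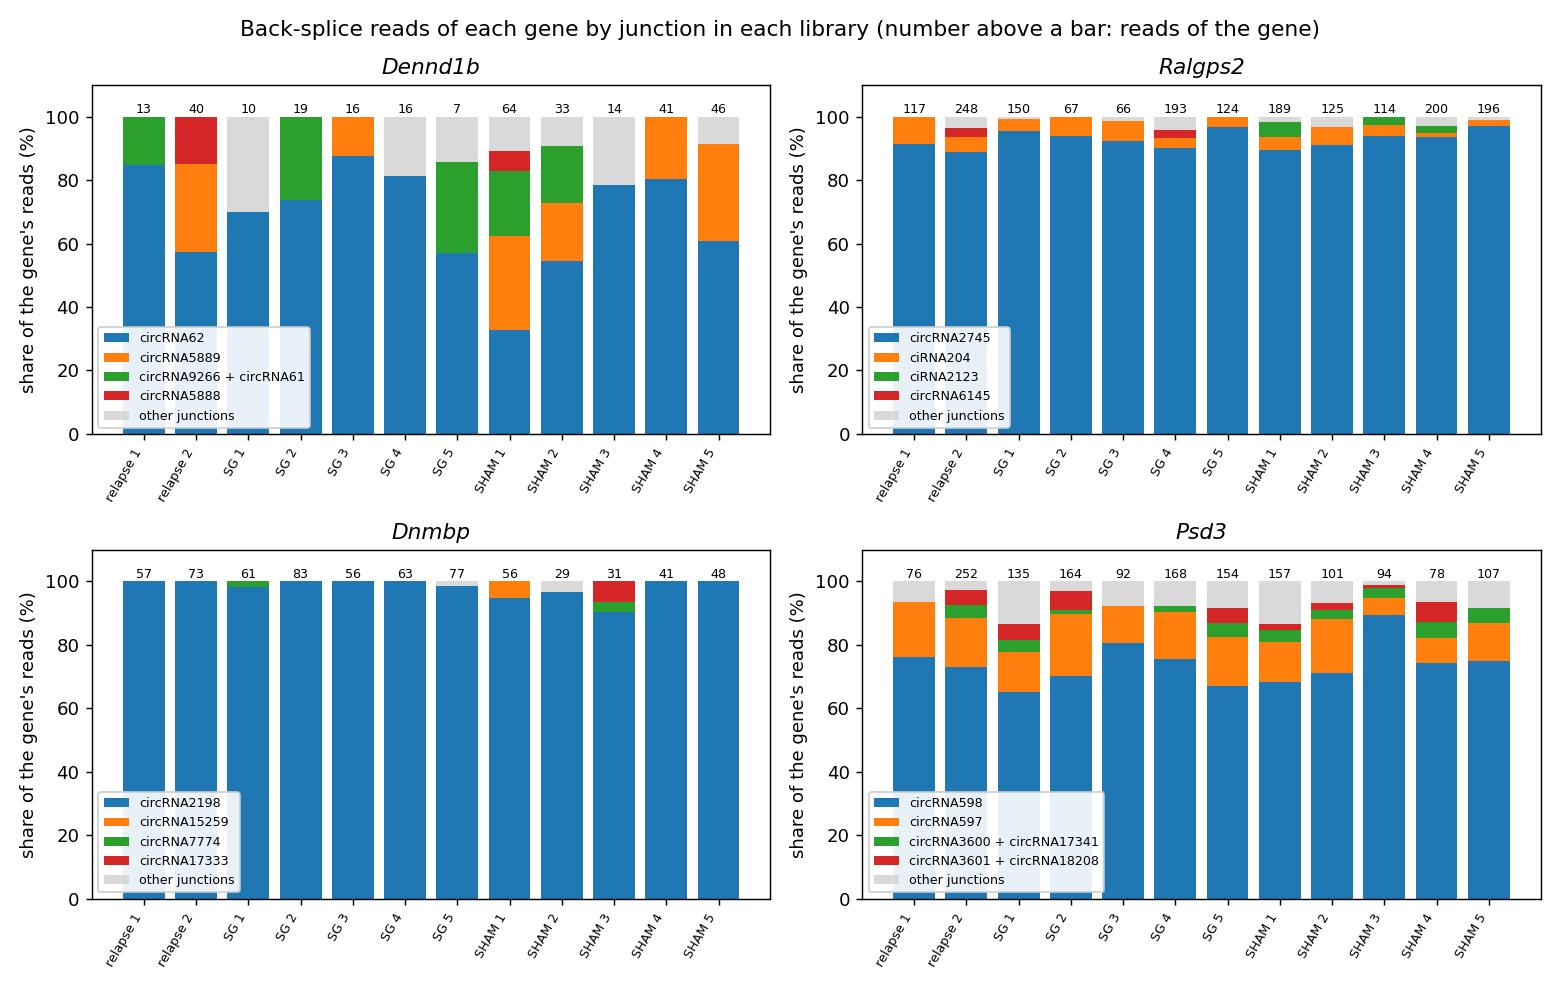
Share of each gene's back-splice reads (y axis, %) held by its 4 junctions with most reads and by all others, in each library of relapse, SG and SHAM (x axis); the number above a bar is the gene's reads. CircRNA2745, circRNA2198 and circRNA598 lead in every library, while the Dennd1b bars rest on as few as 7 reads.

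The shares of the leading circle overlapped between the 3 groups in every gene. They varied most in Dennd1b, from 87.5% in SG 3 to 32.8% in SHAM 1. The share of circRNA62 averaged 71.1 ± 19.2% in relapse (SD, n = 2), 73.9 ± 11.6% in SG (SD, n = 5) and 61.5 ± 19.5% in SHAM (SD, n = 5). With symbol entries alone these differences shrank in size, to 1.89 percentage points in SG minus SHAM and 1.95 in relapse minus SHAM. Relapse minus SG changed sign, from −2.86 to 0.0577. In Psd3 the share of circRNA598 averaged 74.7 ± 2.33% in relapse, 71.6 ± 6.32% in SG and 75.6 ± 8.15% in SHAM. That of circRNA2745 in Ralgps2 averaged 90.1 ± 1.94% in relapse, 93.7 ± 2.57% in SG and 93.0 ± 2.85% in SHAM. Dnmbp was the gene nearest to a single product. Its circRNA2198 took every read in relapse, 99.4 ± 0.814% in SG and 96.3 ± 4.06% in SHAM. SG against SHAM in Dennd1b and Dnmbp was the comparison that chose these genes and is given as values only. In the other 10 comparisons the two-sided exact permutation test gave a smallest adjusted p of 0.698, adjusted over 12 comparisons; the smallest p the design allows is 0.00794 for 5 against 5 libraries and 0.0476 for 2 against 5.

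No junction of the 4 genes passed in edgeR with all libraries. In SG against SHAM circRNA5889 stood at −4.17 on the log2 scale (SE 1.12). Without relapse 1 it was among the 2 of 2095 junctions called there; this is the comparison that chose the gene, and the junction passed the count filter mainly through SHAM, so nothing is read from that call. Over all 1519 junctions tested, 0% passed between SG and SHAM, 0% between relapse and SG and 0% between relapse and SHAM, with 59, 73 and 88 at an unadjusted p under 0.05. For hosts those numbers were 50, 58 and 79 of 1337. In all 4 genes the SG and SHAM ranges overlapped. Of all tested hosts 0.449% had every SG value above every SHAM value and 0.374% had every SG value below.

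**Figure D4:**
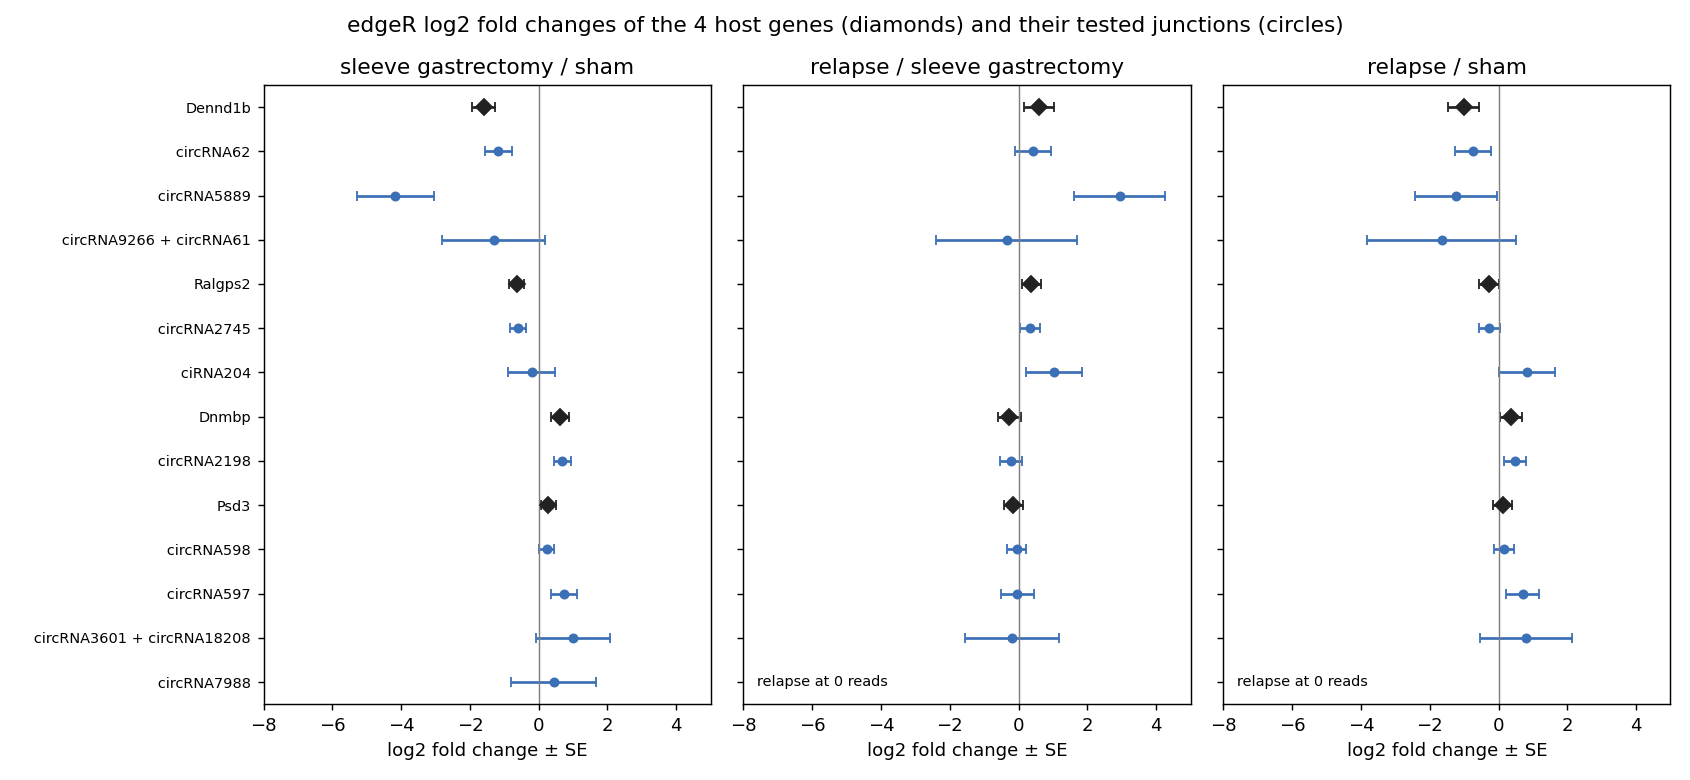
Log2 fold changes with their SE from edgeR (x axis) for the 4 host genes (diamonds) and their 10 tested junctions (circles) in SG against SHAM, relapse against SG and relapse against SHAM; circRNA7988 had 0 reads in relapse and has no point there. Dennd1b lies at −1.60, 0.59 and −1.01, and the Psd3 host lies near 0 in all 3.

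The patterns of the 4 genes over the 12 libraries were set against each other. On the log2 scale, scaled by library, Pearson's r was 0.51 between Dennd1b and Ralgps2, −0.65 between Ralgps2 and Dnmbp, −0.42 between Dennd1b and Dnmbp and 0.25 between Dnmbp and Psd3. Between Ralgps2 and Psd3, chosen by abundance, r was −0.39. These are descriptions over 12 libraries that share the groups and the scaling. Dennd1b and Dnmbp were chosen by SG against SHAM, where they differed in opposite directions. Nothing is therefore read from the r of either with another of the 4 genes. The hosts whose pattern was most like that of Dennd1b were Nfia, a transcription factor (r = 0.86), LOC103690164 (0.80) and Eya3, a phosphatase and co-activator (0.80). For Ralgps2 they were Gk, glycerol kinase (0.85), Lrch3 (0.79) and Chd2, a chromatin remodeller (0.79). Dnmbp was most like Dock6, itself an exchange factor for Rac and Cdc42 (0.90), Vps53, of endosome to Golgi traffic (0.78), and Tut4, which adds uridines to RNA (0.75). Psd3 was most like Evi5, a GTPase-activating protein for Rab proteins (0.92), Slc41a2, a magnesium transporter (0.81), and Tut7, a relative of Tut4 (0.80). Evi5 had 2910.0 ± 747 RPM in relapse (SD, n = 2), 3275 ± 563 RPM in SG (SD, n = 5) and 2649 ± 350.3 RPM in SHAM (SD, n = 5). All these likenesses were picked as the highest r among the tested hosts. Some rest on few reads: 82 for Dock6, 80 for Eya3, 50 for Tut7, 45 for LOC103690164 and 33 for Vps53. Dock6 was highest in SG 2, at 1179 RPM, where Dnmbp was also highest.

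The other genes of the GTPase cycle in 5 lists gave no further call. Over all hosts 0.15% passed in SG against SHAM, 0.0748% in relapse against SG and 0.15% in relapse against SHAM. With shares that low and so few genes tested, nothing is read from the lack of calls in any of these lists. Of 39 Rab exchange factors, 24 had a circRNA and 9 were tested. In SG against SHAM 1 passed, lower in SG, and it was Dennd1b itself. The median log2 fold change was 0.11, or 0.18 over the 8 genes without Dennd1b, beside 0.00 over all hosts. Ankrd27, which acts on Rab21, had 2196 ± 427 RPM in relapse (SD, n = 2), 1883 ± 402 RPM in SG (SD, n = 5) and 1722 ± 699 RPM in SHAM (SD, n = 5). Rab3ip, which acts on Rab8, had 1200.4 ± 216 RPM in relapse, 1040.3 ± 169 RPM in SG and 1084 ± 361 RPM in SHAM.

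Of 21 exchange factors for Ras, Rap and Ral, 12 had a circRNA, 4 were tested and 0 passed in any of the 3 comparisons. The median in SG against SHAM was 0.17 with Ralgps2 and 0.47 over the 3 genes without it. Ralgps1, the close relative of Ralgps2, had 40 reads over all libraries, against 1789 of Ralgps2, which was chosen by its abundance. Rapgef4, a Rap exchange factor that responds to cAMP, had 51. Of 16 Arf exchange factors, 10 had a circRNA, and Psd3 and Arfgef2, of the Golgi, were tested and did not pass. Their median was 0.39, and Arfgef2 alone was at 0.49. Arfgef2 had 51 reads.

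On the other side of the cycle, 126 GTPase-activating proteins gave 94 hosts with a circRNA and 31 tested, of which 0 passed in any comparison (median −0.09 in SG against SHAM). The most abundant after Evi5 were Tbc1d5, with 890 ± 42.9 RPM in relapse (SD, n = 2), 1318 ± 462 RPM in SG (SD, n = 5) and 1439 ± 359 RPM in SHAM (SD, n = 5), and Nf1, which acts on Ras, with 1320.1 ± 412 RPM in relapse, 1131 ± 359 RPM in SG and 771 ± 202 RPM in SHAM. Of 120 small GTPases themselves, 35 had a circRNA and 7 were tested, with 0 past the threshold (median 0.12). The most abundant were Rab6a, Arl1 and Arl15, with 397, 377 and 249 reads. The median over all hosts was −0.05 in relapse against SG and −0.08 in relapse against SHAM.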

How the data were processed

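The deposited table gives per library a back-splice read count and a normalised value, SRPBM, for each circRNA entry; the authors' counts were read as raw, being whole numbers with unequal totals, and the 12 SRPBM columns were not used. The submitters' processing notes name cutadapt 1.9, FastQC, TopHat2 2.0.10 and Rnor_6.0; the caller of back-splice reads is not given in the sources used here. Positions refer to Rnor_6.0 and count from 1. Symbol entries write the start 1 below identifier entries of the same junction; with that corrected, 808 junctions stood as 2 entries, which were summed. Of 1696 identifiers 1449 were joined to a symbol through a shared gene record, transcript or junction.

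Counts were summed per junction and per host gene over the whole table and tested with edgeR 4.0.16 in R 4.3.3 (TMM; filterByExpr at minimum count 5 and total 15; 1 robust quasi-likelihood fit over the 3 groups; Benjamini-Hochberg over all features tested), leaving 1337 hosts and 1519 junctions. The script was tested on simulated counts. The comparisons share libraries. DESeq2 1.42.0 and limma 3.58.1 were among the alternatives. Libraries of 1 group differed by more than sampling noise, so none was taken for a copy of another. This cannot tell whether libraries came from the same animal. RPM divides by all back-splice reads of the library (18176 to 37229). PCR reads without molecular identifiers are not independent, so limits from counts of 0 cover counting error only.

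The 4 genes, 6 gene lists and the tests were chosen with earlier results of these data known. Of the 6 lists, 1 is not reported here. Named are the 4 genes, their tested junctions and the 3 with most reads of each, the 3 hosts most like each gene by Pearson's r of log2 CPM (prior count 2), and for each list the genes past the threshold, filled by abundance to 3. No sequences are given, since no genome of the files' build was at hand.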

Additional observations from a re-analysis of the deposited data

Results flagged for a closer look

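In 36 groups of 5 libraries, the highest or lowest value was set against the rest, and 4 stood apart by Dixon's criterion. Chance alone gives about 1 in 20 groups when values are independent and normal. Some of these groups were mostly at 0, and junctions are part of their host's sum, so the 4 are not weighed against that rate. Dennd1b in SHAM 3 had 729 RPM, against 1816 RPM or more in the other SHAM libraries. CircRNA5889 of Dennd1b had 108 RPM in SG 3, from 2 reads, and 0 in the other SG libraries. The Dennd1b junction of circRNA9266 and circRNA61 had 246 RPM in SG 2, from 5 reads, and at most 68.5 RPM in the other SG libraries. CircRNA597 of Psd3 had 1572 RPM in SG 2, against 593 to 822 RPM in the other SG libraries.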

How the results depend on the processing

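Counts of calls and the fold changes of Dennd1b, Dnmbp and Psd3 were recomputed under 9 alternative settings, those of Ralgps2 under 7 and the leading shares of the other 3 genes under 1, all also with each of the 12 libraries left out. In SG against SHAM the 2 hosts called became 0 with the 2 groups alone, with DESeq2, with host names as written and with a minimum count of 10, and 1 with symbol entries alone. In relapse against SG the 1 host called became 0 under those same 5 settings and 2 without a filter. In relapse against SHAM the 2 hosts called became 1 with the 2 groups alone, with host names as written, with a minimum count of 10 and with symbol entries alone, and 3 with limma-voom, no filter, the replicate block and RLE size factors. Leaving out single libraries gave 0 to 2, 0 to 1 and 0 to 5 hosts in these 3 comparisons.

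For junctions, 0 were called in each comparison. In SG against SHAM the replicate block called 1, in relapse against SG it called 2, as did no filter, and in relapse against SHAM the replicate block, limma-voom and no filter called 1 each. With single libraries left out the counts were 0 to 2, 0 to 9 and 0 to 8, with 9 and 8 without relapse 2. Same-numbered SG and SHAM libraries had correlations of −0.096 to 0.016 in their deviations, and 0 of 5 pairs matched best with their own number, so the numbers were not treated as pairs.

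Dennd1b in SG against SHAM kept its direction in all settings. Its log2 fold change was −1.58 with a minimum count of 10, with DESeq2 and with the 2 groups alone, −1.19 with the hosts named as in the table and −1.17 from symbol entries, and the call was lost in each of these. It ranged from −1.80 to −1.36 with libraries left out, and was −1.62 with the replicate block. Psd3 in relapse against SHAM was −0.12 with the replicate block. With libraries left out Psd3 ranged from −0.65 to 0.24 in relapse against SG and from −0.36 to 0.54 in relapse against SHAM. The difference in the leading share of Dennd1b, relapse minus SG, was 0.0577 percentage points with symbol entries alone, against −2.86 with all entries. In the same way SG minus SHAM was 1.89, against 12.5, and relapse minus SHAM was 1.95, against 9.60. Relapse minus SG ranged from −16.4 to 10.7 with libraries left out, and relapse minus SHAM from −3.96 to 23.2. For Psd3 relapse minus SHAM that range was −2.78 to 2.52, and for Ralgps2 SG minus SHAM −0.131 to 1.75. The cause of these changes was not tested. Ralgps2 had no value with symbol entries alone or host names as written, since its leading circle is an identifier entry. With 2 relapse libraries and 319 Dennd1b reads, small differences could not be resolved.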

Other observations

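Upstream of the Psd3 junctions on the same strand of chromosome 16, the table lists circles named intergenic. CircRNA2629 (23394437 to 23448660) had 153 reads and was read in all 12 libraries. CircRNA6011 (23417581 to 23448660) ended at the same place and had 49 reads. That end lies just past the start of circRNA3598 of Psd3 at 23448553, and circRNA13964 (23394437 to 23492639) ended where circRNA596 and circRNA3598 of Psd3 end. Whether these circles belong to the gene was not tested, and their reads are in none of the Psd3 values.

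The 5 long identifier entries typed intronic, ciRNA204, ciRNA1593 and ciRNA2123 of Ralgps2 and ciRNA902 and ciRNA2735 of Psd3, were listed as beginning 1 base before or ending at the same base as an exonic junction of their gene. CircRNA596 of Psd3 had 26 reads in 10 libraries and did not pass the count filter.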
